A study of Solea senegalensis with 15 samples.

Results

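The genes described here are star and the named steroid enzyme genes of the Senegalese sole testis. They were taken from the gene table by symbol: star, and any symbol of the cyp11a to cyp11c, cyp17a, cyp19a, hsd3b or hsd11b families, with at least 50 counts in at least 1 of 15 fish. The rule found 4 of 28921 genes, namely star, hsd3b1, hsd11b2 and hsd3b7, and all 4 were among the 21227 genes that passed this filter and were tested. The rule used the counts only for this filter, and compared no treatments. At any count, the symbols of the rule matched only these 4 rows, and none of the cyp11, cyp17 or cyp19 families. The chain of enzymes is therefore covered in part only.

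Each fish was a 2-year-old F1 male, and its left testis gave 1 library. The groups were 5 males given single-chain recombinant follicle-stimulating hormone of the species (rFsh, 18 µg/kg), 5 given its single-chain recombinant luteinizing hormone (rLh, 18 µg/kg) and 5 given saline. Injections were intramuscular and weekly for 6 weeks, in groups of 8 injected males each. Fish are named by treatment and number, and fish of different treatments with the same number are different animals. Library totals were 50.7 to 76.2 M counts in rFsh males, 53.2 to 64.5 M in rLh males and 67.8 to 109.8 M in saline males. Markers of the testis were present in every fish: the Sertoli cell marker gsdf had at least 1262 CPM (counts scaled to library size) and the spermatocyte marker sycp1 at least 281 CPM. Of the 9 Sertoli cell and 9 spermatocyte markers in the gene table, all but fshr and sycp3 passed the count filter. Both of these stayed under 50 counts in every fish.

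Steroid synthesis in the testis takes place mainly in Leydig cells, between the tubules, and is driven by the pituitary gonadotropins. Star carries cholesterol to the inner mitochondrial membrane, where the Cyp11a1 enzyme cuts its side chain to give pregnenolone. Enzymes of the 3β-hydroxysteroid dehydrogenase family, such as Hsd3b1, then turn Δ5 into Δ4 steroids. In teleosts the enzyme encoded by hsd11b2 is known for the last step to 11-ketotestosterone, the main fish androgen, and in vertebrates generally for inactivating cortisol. Hsd3b7 is known in mammals as an enzyme of bile acid synthesis, and so shares the family name but not the place in this chain.

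In the IFAPA_SoseM_1 assembly, star lies on linkage group 5 at 25365753 to 25368135, between grk5l and elmod3. The gene hsd3b1 lies on linkage group 2 at 2490364 to 2493602, and hsd11b2 on linkage group 7 at 26877305 to 26884939. The gene hsd3b7 lies on linkage group 5 at 10646358 to 10661433, far from star. None of these 4 spans overlaps another annotated gene. No exon lengths were at hand, so levels are compared between fish and not between genes.

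None of the 4 genes passed the test in any of the 3 comparisons, and for each gene the fish of every group overlapped those of the other groups. The edgeR quasi-likelihood test, adjusted by Benjamini-Hochberg over the 21227 genes, called 0 of 4 for rFsh against saline, where it called 0.0471% of all genes. It likewise called 0 of 4 for rLh against saline and for rLh against rFsh, where it called 0% of all genes in both. DESeq2 also called 0 of 4 in each, beside 2.93% of all genes for rFsh against saline, 0.221% for rLh against saline and 0.636% for rLh against rFsh. At an unadjusted edgeR p under 0.05 the count was again 0 of 4 in each comparison, beside 17.2%, 13.2% and 9.91% of all genes in the same order. Groups that do not overlap were found for 1.72%, 2.1% and 1.54% of all genes. For hsd11b2 after rLh, the fold interval against saline reached 2.57, so that a change of this size lay within the error of the test.

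**Figure D1:**
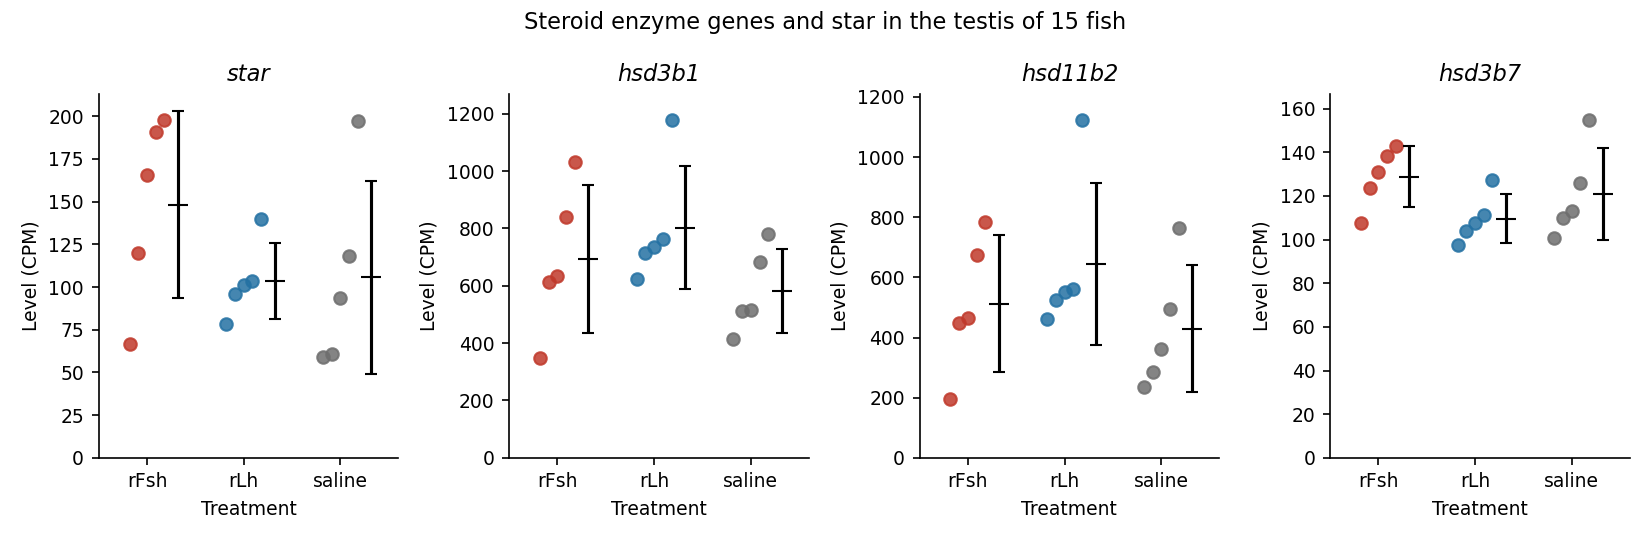
Level in CPM (vertical axis, from 0) of star, hsd3b1, hsd11b2 and hsd3b7 in 5 rFsh, 5 rLh and 5 saline males; each point is a fish, and the black mark gives the mean with its SD. The groups overlap in all 4 panels, and hsd3b7 has the narrowest spread.

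The cholesterol carrier gene star had the highest mean after rFsh. Its level was 198, 165, 120.0, 191 and 66.8 CPM in rFsh 61, 62, 64, 68 and 69. It was 95.9, 78.2, 103, 139.6 and 101 CPM in rLh 63, 64, 66, 67 and 68, and 93.5, 118, 59.3, 60.9 and 197 CPM in saline 63, 64, 66, 67 and 68. Among rFsh males 4 of 5 lay above 4 of 5 saline males, while rFsh 69 was near the low end and saline 68 was the second highest of all 15 fish. Means were 148 ± 54.7 CPM in rFsh males, 104 ± 22.4 CPM in rLh males and 106 ± 56.6 CPM in saline males (SD, n = 5 each). The log2 fold change of rFsh over saline was 0.49 ± 0.32 (SE; edgeR adjusted p = 0.451), with a 95% interval of the fold from 0.870 to 2.26. For rLh over saline it was -0.03 ± 0.32 (adjusted p = 0.977), with a fold interval of 0.609 to 1.58, and for rLh over rFsh -0.51 ± 0.32 (adjusted p = 0.594), with a fold interval of 0.434 to 1.13.

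The star values moved with single fish. With each left out in turn, the log2 fold change of rFsh over saline ran from 0.33 to 0.84, the last without saline 68. Without saline 68 the log2 fold change of rFsh over saline was 0.84 (edgeR adjusted p = 0.0998), and that of rLh over saline turned to 0.32 (adjusted p = 0.559). The labels hold 15 fish, whereas the mean counts in the study's tables matched the 12 fish without rFsh 62, rLh 68 and saline 68. Over these 12 fish the log2 fold change of star for rFsh over saline was 0.80 ± 0.32 in edgeR (adjusted p = 0.201) and 0.80 ± 0.31 in DESeq2 (adjusted p = 0.101).

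The enzyme gene hsd3b1 had its highest mean after rLh. It had 839, 614, 634, 1032 and 347 CPM in rFsh 61, 62, 64, 68 and 69. In rLh 63, 64, 66, 67 and 68 it had 763, 734, 714, 1176 and 624 CPM, against 684, 513, 517, 414 and 779 CPM in saline 63, 64, 66, 67 and 68. The highest of the 15 fish was rLh 67 and the lowest rFsh 69. Of the rLh males 4 of 5 exceeded 4 of 5 saline males, and saline 68 exceeded 4 of the 5 rLh males. Means were 693 ± 258 CPM in rFsh, 802 ± 215 CPM in rLh and 582 ± 147 CPM in saline males (SD, n = 5 each). The log2 fold change of rLh over saline was 0.46 ± 0.25 (edgeR adjusted p = 0.431), with a fold interval of 0.954 to 1.99. That of rFsh over saline was 0.25 ± 0.25 (adjusted p = 0.631), with a fold interval of 0.825 to 1.72, and that of rLh over rFsh 0.21 ± 0.25 (adjusted p = 0.788), with a fold interval of 0.801 to 1.67.

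The 11-oxygenated androgen gene hsd11b2 showed the same order of means with a wider spread. It had 673, 464, 447, 784 and 194 CPM in rFsh 61, 62, 64, 68 and 69. In rLh 63, 64, 66, 67 and 68 it had 562, 524, 549.9, 1122 and 461 CPM, against 496, 360.4, 287, 236 and 765 CPM in saline 63, 64, 66, 67 and 68. As for hsd3b1, rLh 67 was highest and rFsh 69 lowest of all fish, and saline 68 lay above 4 of the 5 rLh males. Means were 513 ± 228 CPM in rFsh, 644 ± 270 CPM in rLh and 429 ± 212 CPM in saline males (SD, n = 5 each). The log2 fold change of rLh over saline was 0.59 ± 0.37 (edgeR adjusted p = 0.484), with a fold interval of 0.875 to 2.57. That of rFsh over saline was 0.26 ± 0.37 (adjusted p = 0.750), with a fold interval of 0.698 to 2.05, and that of rLh over rFsh 0.33 ± 0.37 (adjusted p = 0.773), with a fold interval of 0.733 to 2.15.

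For these enzymes, too, single fish moved the value. Without rLh 67 the log2 fold change of rLh over saline was 0.29 for hsd11b2 (edgeR adjusted p = 0.813) and 0.29 for hsd3b1 (adjusted p = 0.731), and without saline 68 it was 0.90 for hsd11b2 (adjusted p = 0.195). Over the 12 fish it was 1.01 ± 0.39 for hsd11b2 (adjusted p = 0.154) and 0.68 ± 0.28 for hsd3b1 (adjusted p = 0.182). The rFsh values moved as well: without rFsh 68 the log2 fold change of rFsh over saline was 0.05 for hsd11b2 and 0.07 for hsd3b1.

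The family member hsd3b7 varied least. It had 124, 107, 143, 138 and 131 CPM in rFsh 61, 62, 64, 68 and 69. In rLh 63, 64, 66, 67 and 68 it had 107, 111, 127, 97.5 and 104 CPM, against 109.95, 155, 113, 126 and 101 CPM in saline 63, 64, 66, 67 and 68. Here rLh 67, highest for both enzymes above, was the lowest of the 15 fish. Means were 129 ± 13.97 CPM in rFsh, 109.5 ± 11.2 CPM in rLh and 121 ± 21.0 CPM in saline males (SD, n = 5 each). Between the hormones the log2 fold change of rLh over rFsh was -0.23 ± 0.11 (edgeR adjusted p = 0.508), with a fold interval of 0.721 to 1.004. Against saline it was 0.09 ± 0.11 for rFsh (adjusted p = 0.703) and -0.14 ± 0.11 for rLh (adjusted p = 0.581), with fold intervals of 0.904 to 1.26 and 0.769 to 1.07.

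**Figure D2:**
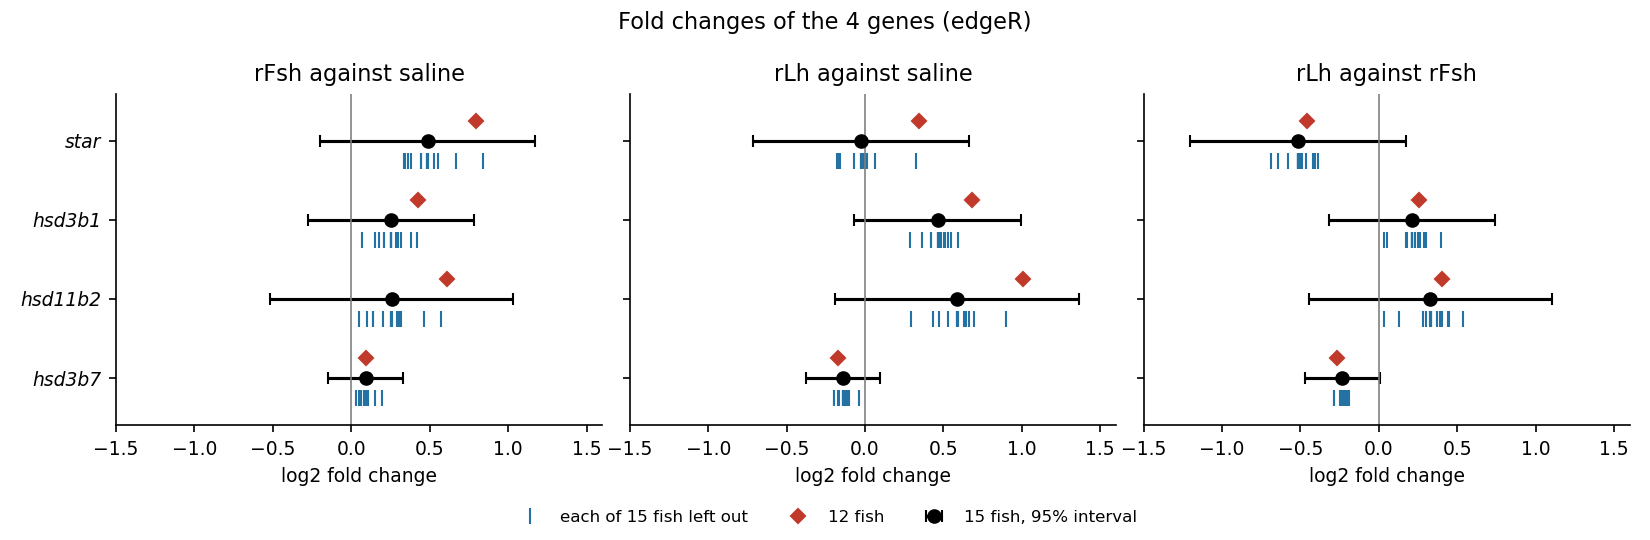
Log2 fold change (horizontal axis) of the 4 genes in 3 comparisons; black points and bars give the edgeR value and its 95% interval over 15 fish, blue ticks the value with each fish left out in turn, and red diamonds the value over the 12 fish. All 12 black intervals include 0, and the ticks of star for rLh against saline lie on both sides of 0.

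Males of the same treatment differed widely in star, hsd3b1 and hsd11b2. The SD of log2 CPM within groups was 0.59 for star, 0.45 for hsd3b1, 0.66 for hsd11b2 and 0.19 for hsd3b7. The median over the 5530 genes with a mean of at least 50 CPM was 0.16, and star, hsd3b1 and hsd11b2 stood at percentiles 99.2, 97.8 and 99.5 of those genes, and hsd3b7 at 64.4. These 3 were thus among the most variable genes of their level between fish of a group, and hsd3b7 was not.

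Within groups, star, hsd3b1 and hsd11b2 varied together, hsd3b1 and hsd11b2 most closely. With the group means subtracted, hsd3b1 and hsd11b2 correlated across the 15 fish with Pearson's r = 0.98 and Spearman's rho = 0.94 (permutation within groups, p = 1e-05 for r, the smallest that 100000 permutations can give; adjusted p = 6.0e-05 over 6 pairs; for rho p = 2.0e-05, adjusted 0.00012). For star and hsd11b2 r was 0.90 and rho 0.84 (permutation p = 0.00025 for r and 0.00066 for rho, adjusted 0.00075 and 0.00198). For star and hsd3b1 r was 0.81 and rho 0.70 (permutation p = 0.00125 and 0.0105, adjusted 0.0025 and 0.021). Without the 2 fish farthest from the median of the first gene named, r was 0.97, 0.81 and 0.69 in the same order. Over the 15 fish with the group means kept, r was 0.98 for hsd3b1 and hsd11b2, 0.76 for star and hsd11b2 and 0.68 for star and hsd3b1. The ranks of star did not always follow: rFsh 62 was 4th of the 15 fish in star but 11th in hsd3b1 and 9th in hsd11b2, and rLh 63 was 10th in star but 5th in both enzymes. With the group means subtracted, hsd11b2 ranked 1st of the 21226 other genes by r with hsd3b1, and hsd3b1 2nd with hsd11b2. By r with star, hsd11b2 ranked 24th and hsd3b1 191st. In turn, star ranked 48th with hsd11b2 and 245th with hsd3b1, so many other genes followed as closely or more closely.

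The gene hsd3b7 did not share this pattern. Its r was -0.25 with star, -0.29 with hsd3b1 and -0.33 with hsd11b2 (permutation p = 0.476, 0.320 and 0.278; adjusted 0.476, 0.384 and 0.384), and its rho was -0.22, -0.35 and -0.39 (permutation p = 0.490, 0.238 and 0.198; adjusted 0.490, 0.286 and 0.286). Without the 2 farthest fish r was -0.03, -0.49 and -0.22.

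**Figure D3:**
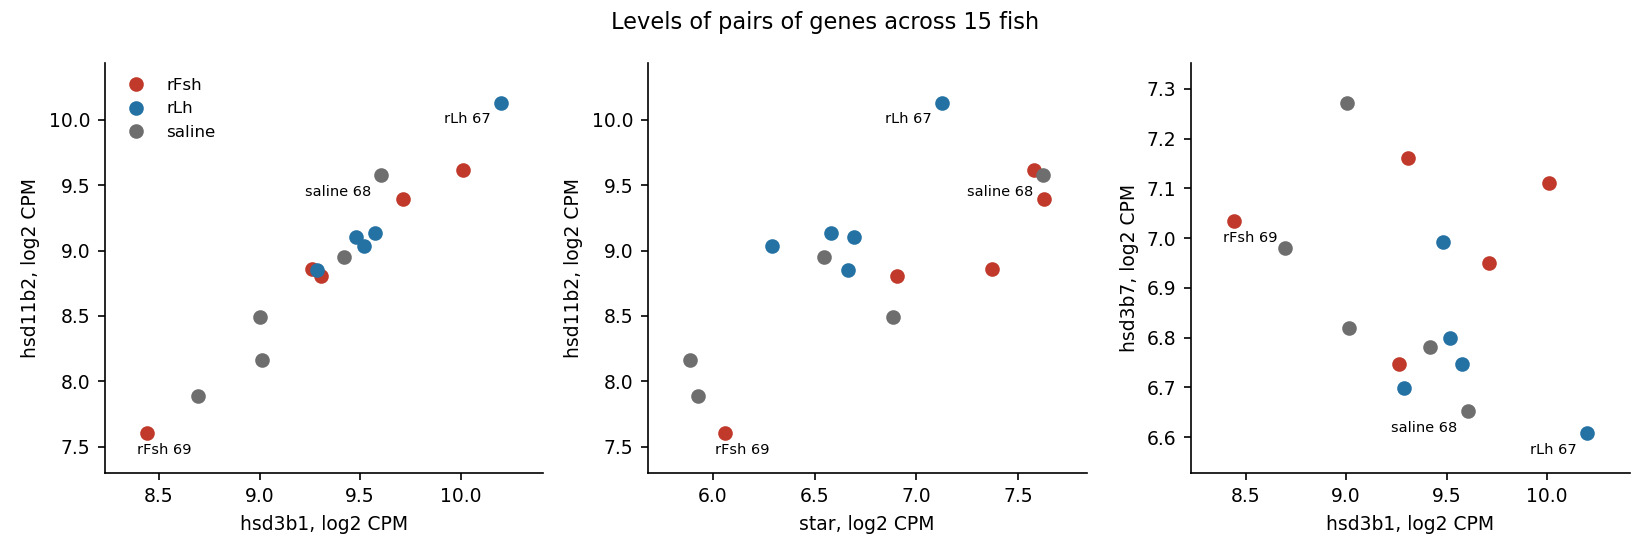
Log2 CPM of hsd3b1 against hsd11b2 (left), star against hsd11b2 (middle) and hsd3b1 against hsd3b7 (right) in 15 fish coloured by treatment, with 3 fish named. In the left panel rLh 67 and rFsh 69 form the ends of a single band that holds all 3 groups, and the right panel shows no such band.

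Outside the 4 genes, those most like star, hsd3b1 and hsd11b2 over the 15 fish were named by Pearson's r as a description. For star they were LOC122781549 (r = 0.92), LOC122786717 (r = 0.92) and atp2a2a (r = 0.91), the last encoding a calcium pump of the endoplasmic reticulum. For hsd3b1 they were LOC122766283 (r = 0.96), LOC122774868 (r = 0.95) and lrrc75a (r = 0.94). For hsd11b2 they were slc30a4 (r = 0.98), a zinc transporter gene, ptprn2 (r = 0.96), encoding a receptor-type phosphatase of secretory vesicles, and LOC122765361 (r = 0.95). These points share library and treatment.

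Of the Leydig cell markers, insl3 and lhcgr moved with the enzymes. The summed level of the 5 Leydig markers found, of 8 sought, was 293 to 1103 CPM in rFsh males, 450 to 802 CPM in rLh males and 248 to 759 CPM in saline males (medians 592, 505 and 310). All 5 were above 0 in every fish, and insl3, the gene of the Leydig cell hormone insulin-like 3, alone had 114 to 923 CPM. In whole testis, fewer Leydig cells and less RNA per Leydig cell cannot be told apart. The share of the Leydig cells in the spread of the enzymes was not tested. With the group means subtracted, insl3 followed star with r = 0.83, hsd3b1 with r = 0.86 and hsd11b2 with r = 0.89. The receptor gene lhcgr, also on that list, followed hsd3b1 with r = 0.85, while nr2f2 and ptch1, listed as well, had r = 0.06 and 0.20. The study also places an Lh receptor, Lhcgrba, on spermatids released into the lumen, so lhcgr may not mark Leydig cells alone. The only interrenal marker in the table, the corticotropin receptor gene mc2r, was at 0.53 to 1.23 CPM.

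Within a fish, the ratios of star to hsd3b1 and to hsd11b2 did not overlap between rLh and rFsh males, whereas those of star to hsd3b7 and to insl3 did. These ratios were examined after the values had been seen, and are given as a description. The ratio of CPM between star and hsd3b1 does not depend on library size, and gene length is the same in every group. It was 0.235, 0.270, 0.189, 0.185 and 0.192 in rFsh 61, 62, 64, 68 and 69. In rLh 63, 64, 66, 67 and 68 it was 0.126, 0.107, 0.145, 0.119 and 0.162, and in saline 63, 64, 66, 67 and 68 it was 0.137, 0.230, 0.115, 0.147 and 0.253. Every rLh male lay below every rFsh male, whereas saline males overlapped both groups. The difference in the log2 ratio of rLh minus rFsh was -0.70 ± 0.15 (SE, n = 5 each). Of all 21226 genes other than hsd3b1, 0.292% had a ratio to hsd3b1 that was lower in every rLh than in every rFsh male. This share counts only the direction seen for star, and was taken after the values had been seen. It therefore does not measure how unusual star is.

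The ratio of star to hsd11b2 showed the same order. It was 0.293, 0.356, 0.269, 0.244 and 0.344 in rFsh males, 0.170, 0.149, 0.188, 0.124 and 0.220 in rLh males and 0.189, 0.328, 0.207, 0.258 and 0.258 in saline males, with the fish in the order above. Again every rLh male lay below every rFsh male (log2 difference -0.83 ± 0.17), and both hormone groups overlapped saline. The same direction held for 0.264% of the genes other than hsd11b2, a share with the same limit. As hsd3b1 and hsd11b2 follow each other so closely, both ratios describe nearly the same thing. The ratio of hsd11b2 to hsd3b1 overlapped in all 3 comparisons, at 0.717 ± 0.0945 in rFsh, 0.783 ± 0.0977 in rLh and 0.707 ± 0.171 in saline males (SD, n = 5 each). For rLh minus rFsh the log2 difference was -0.21 ± 0.36 in the ratio of star to hsd3b7 and -0.40 ± 0.27 in that of star to insl3, with overlapping fish in both.

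**Figure D4:**
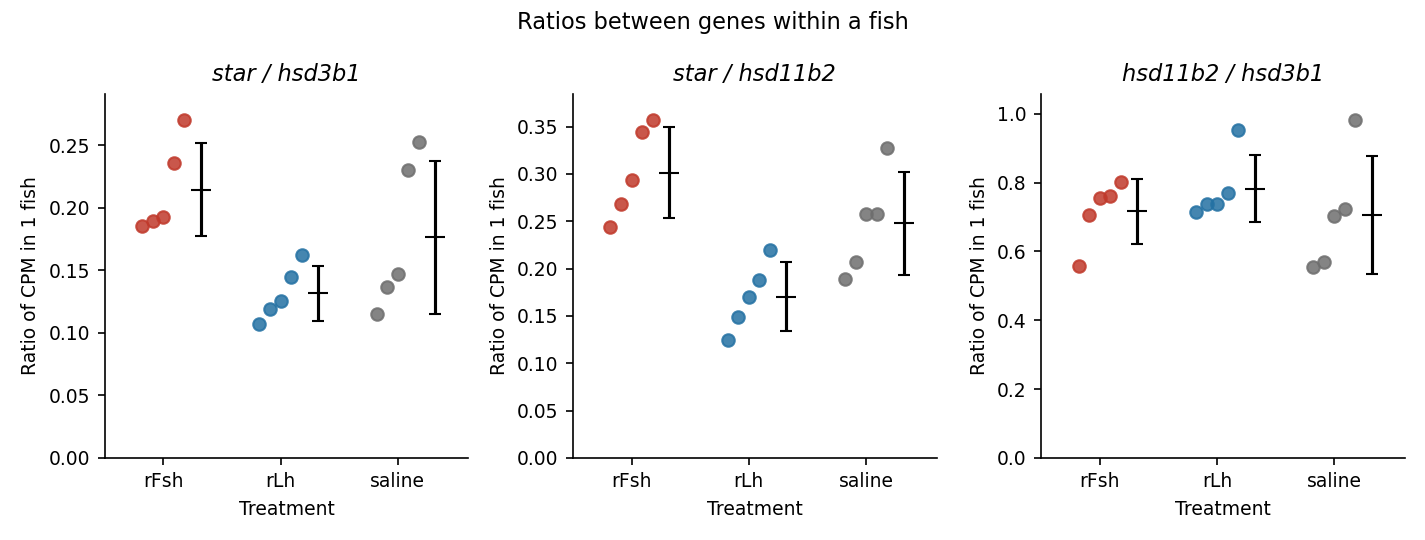
Ratio of CPM within a fish (vertical axis, from 0) of star to hsd3b1, star to hsd11b2 and hsd11b2 to hsd3b1 in rFsh, rLh and saline males; points are fish and black marks the mean with SD. In the first 2 panels the highest rLh male (0.162 and 0.220) lies below the lowest rFsh male (0.185 and 0.244).

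The next gene of the chain was available only under an identifier. The study's tables give human CYP11A1, the side-chain cleavage enzyme, as the match of LOC122775933 (linkage group 10, 13918903 to 13922736). Its span overlaps ccdc33, and without exon positions it was not tested whether reads of both genes can be fully separated. LOC122775933 was listed in the study's tables because it had been called on these samples, so its direction is no independent evidence. It had 132, 129, 114, 149.6 and 78.1 CPM in rFsh 61, 62, 64, 68 and 69. In rLh 63, 64, 66, 67 and 68 it had 151, 157, 153, 255 and 110.2 CPM, against 134, 109, 99.0, 86.3 and 165 CPM in saline 63, 64, 66, 67 and 68. The groups overlapped, with 3 of 5 rLh males between 151 and 157 CPM, and rLh 67 again the highest and rFsh 69 the lowest of all fish. Its log2 fold change was 0.48 ± 0.22 for rLh over saline (edgeR adjusted p = 0.371), 0.02 ± 0.22 for rFsh over saline (adjusted p = 0.969) and 0.46 ± 0.22 for rLh over rFsh (adjusted p = 0.509). In DESeq2 over the 12 fish, where 10.6% of all genes were called for rLh against saline, it was 0.74 ± 0.22 (adjusted p = 0.0146). Without rLh 67 the edgeR value was 0.27 for rLh over saline (adjusted p = 0.680) and 0.25 for rLh over rFsh (adjusted p = 0.772).

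The remaining genes around the pathway were a list of 48 rows, of which 45 were tested: sterol carriers, redox partners, 17β-hydroxysteroid dehydrogenases, steroid and gonadotropin receptors, regulators and insl3. edgeR called 0 of 45 in each comparison. At an unadjusted p under 0.05, 3 were higher and 3 lower for rFsh against saline, 4 higher and 3 lower for rLh against saline, and 2 higher and 1 lower for rLh against rFsh. Over all genes the shares so called were 9.53% higher and 7.63% lower, 5.89% higher and 7.31% lower, and 4.96% higher and 4.95% lower. DESeq2 called 1 of 45, stard5, for rFsh against saline, where it called 2.93% of all genes. It called no gene of the list for rLh against saline or for rLh against rFsh, beside 0.221% and 0.636% of all genes. The median log2 fold change of the 45 genes was 0.01, 0.02 and 0.03 in the same order, beside 0.01, 0.01 and -0.01 over all tested genes. That of the 4 genes above was 0.26, 0.22 and -0.01. The follicle-stimulating hormone receptor gene fshr, hsd17b4 and the ferredoxin gene fdx2 were listed at 0 in all 15 fish, and each lies within the span of another annotated gene.

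Of the carriers, stard5, a cytosolic sterol-binding protein gene, had 42.5, 60.9, 53.7, 56.7 and 35.9 CPM in rFsh 61, 62, 64, 68 and 69. In rLh 63, 64, 66, 67 and 68 it had 38.5, 40.2, 56.6, 49.9 and 45.1 CPM, against 30.7, 31.9, 25.6, 25.4 and 46.2 CPM in saline 63, 64, 66, 67 and 68. All 10 hormone-treated males lay above 4 of 5 saline males, and only saline 68 overlapped them. The gene was named because DESeq2 called it on these fish. This order and the calls below are therefore no independent evidence, and the share of all genes with such an order was not counted. The log2 fold change of rFsh over saline was 0.64 ± 0.18 (edgeR adjusted p = 0.134; DESeq2 adjusted p = 0.0299). edgeR passed the threshold without saline 68 (0.81, adjusted p = 0.0322) and without rFsh 69 (0.74, adjusted p = 0.0285), where 2.99% and 4.72% of all genes were called. That of rLh over saline was 0.53 ± 0.18 (edgeR adjusted p = 0.344; DESeq2 adjusted p = 0.167). DESeq2 over the 12 fish, which leave out saline 68, gave 0.70 (adjusted p = 0.00246), where it called 10.6% of all genes. For rFsh over saline DESeq2 over the 12 fish, which called 5.87% of all genes, gave 0.73 (adjusted p = 0.00267).

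The gene porb encodes a cytochrome P450 reductase, the electron donor of microsomal steroid hydroxylases. It had 322, 287, 231, 412 and 176 CPM in rFsh males, 284, 288, 311, 445 and 261 CPM in rLh males and 216, 159.7, 176, 155 and 310.3 CPM in saline males, with the fish in the order above. All rLh males exceeded 4 of 5 saline males. The gene was named for its fold change after rLh, among the 2 largest of the list, so this difference is no independent evidence. The log2 fold change of rLh over saline was 0.64 ± 0.23 (edgeR adjusted p = 0.344) and that of rFsh over saline 0.49 ± 0.23 (adjusted p = 0.290). The 12 fish leave out saline 68, the highest saline male for porb. Over them DESeq2 gave 0.91 for rLh over saline (adjusted p = 0.00426), where it called 10.6% of all genes. There edgeR gave 0.92 (adjusted p = 0.0645) and called 0 genes. With hsd3b1, porb ranked 5th of 21226 genes by r with group means subtracted (r = 0.94).

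The Leydig cell hormone gene insl3 had 388, 448, 248, 923 and 159 CPM in rFsh males, 299, 361, 356, 523 and 275 CPM in rLh males and 231, 127, 114, 114 and 543 CPM in saline males, again in the order above. All rLh males lay above 4 of 5 saline males, and saline 68 exceeded every rLh male. Its log2 fold change was 0.94 ± 0.47 for rFsh over saline (edgeR adjusted p = 0.321) and 0.68 ± 0.47 for rLh over saline (adjusted p = 0.526). Without saline 68 these were 1.56 (adjusted p = 0.0527) and 1.31 (adjusted p = 0.137), and without rFsh 68 the value for rFsh over saline was 0.46 (adjusted p = 0.674). The receptor gene lhcgr, which binds luteinizing hormone, had 93.0, 84.5, 77.0, 89.4 and 37.1 CPM in rFsh males, 92.4, 97.7, 77.5, 173 and 85.4 CPM in rLh males and 73.3, 57.9, 91.3, 36.1 and 112 CPM in saline males. The 3 groups overlapped, with rLh 67 highest. Its log2 fold change was 0.04 ± 0.30 for rFsh over saline (adjusted p = 0.964) and 0.50 ± 0.30 for rLh over saline (adjusted p = 0.460), the last of which was 0.25 without rLh 67 (adjusted p = 0.799).

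**Figure D5:**
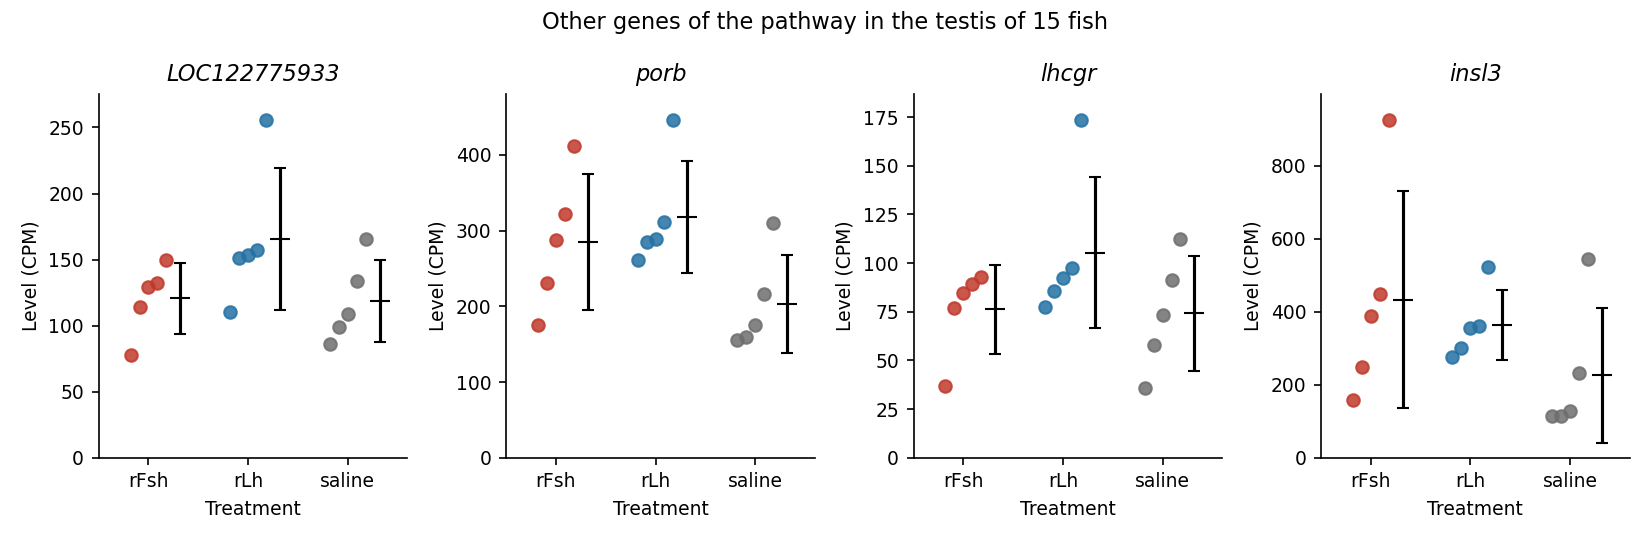
Level in CPM (vertical axis, from 0) of LOC122775933, porb, lhcgr and insl3 in rFsh, rLh and saline males; each point is a fish, and the black mark gives the mean with its SD. In the first 3 panels the highest point is the same male, rLh 67 (255, 445 and 173 CPM).

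For both genes of the list with the largest fitted change after rFsh, 1 fish stood far above the rest of its group. The genes foxl2a, a regulator known from the ovary, and hsd17b1, an enzyme that reduces estrone to estradiol in mammals, had 3.85 and 2.22 CPM in rFsh 69. In the other rFsh males foxl2a was at 0.0664 to 0.127 CPM (4 to 7 counts) and hsd17b1 at 0.0182 to 0.189 CPM (1 to 10 counts). The span of hsd17b1 overlaps mylk5. The log2 fold changes of foxl2a and hsd17b1 for rFsh over saline were 1.54 ± 0.97 and 1.23 ± 0.90 (edgeR adjusted p = 0.426 and 0.495). Without rFsh 69 that of foxl2a was -1.71, while hsd17b1 no longer passed the count filter. This male, rFsh 69, was also the lowest of 15 in hsd3b1, hsd11b2 and LOC122775933.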

How the data were processed

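Total RNA of the left testis of 15 males was sequenced by the authors as 100 bp read pairs from libraries of a modified SMARTseq2 protocol. Per the labels and methods, reads were trimmed with cutadapt 3.4, checked with FastQC 0.11.9, aligned with Subread 2.0.1 to the reference genome of the species and assigned to genes with RSubread at default parameters. The deposited values are raw counts per gene, not normalised, without molecular identifiers. Default counting uses no strand. The authors' fold changes and p-values were not used as values, but LOC122775933 was found through their list of called genes. Their mean counts served only to find which 12 fish of the 125 possible choices, leaving out 1 per group, they cover.

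Groups were taken from the labels, which give no batch. The counts were tested with edgeR 4.0.16 under R 4.3.3 (quasi-likelihood F test, not the legacy form, TMM factors, 1 mean per group over 15 fish, two-sided), with Benjamini-Hochberg adjustment over the 21227 genes with at least 50 counts in at least 1 fish and a threshold of 0.05. SEs are the log2 fold change over the square root of F. DESeq2 1.42.0, the authors' tool in another version, was an alternative, as were other scalings and filters, the fish number as a block, each fish left out in turn, and the 12 fish. Levels are CPM with TMM factors, and log2 CPM used a prior count of 2. Correlations were tested by 100000 permutations within groups. The fits were tested on simulated data. Of the gene table's rows, 93.1% matched the annotation by symbol.

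All 4 genes were named. Of the 48 further rows, those past the threshold in edgeR or DESeq2, the 2 with the largest absolute fold change per hormone against saline, and lhcgr and insl3 were named. The members and lists were chosen with earlier results of these data known. P-values of the group comparisons set a difference against the spread between fish of a group, as each tool estimates it. Those of the correlations rest on permutations of fish within groups. Depth, 50.7 to 109.8 M counts per library, gave each of the 4 genes at least 4657 counts in every fish.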

Additional observations from a re-analysis of the deposited data

Results flagged for a closer look

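In 8 of 33 groups of 5 fish, taken over 11 genes, 1 fish stood apart from the others by more than Dixon's 95% limit. Chance alone would flag about 1 in 20 groups, but that rate does not apply to this count. The genes are not independent, since several follow each other across fish. In addition, foxl2a and hsd17b1 were named for their large fold change after rFsh, and porb for its own after rLh. The change of foxl2a and hsd17b1 rested on rFsh 69, so their flags follow from the choice of genes. The flagged fish of porb, rLh 67, raised the rLh mean, so this flag is not independent of that choice either. In rLh males fish 67 was high for hsd3b1 (1176 CPM, others 624 to 763), hsd11b2 (1122 CPM, others 461 to 562), lhcgr (173 CPM, others 77.5 to 97.7) and porb (445 CPM, others 261 to 311). In rFsh males fish 69 was low for lhcgr (37.1 CPM, others 77.0 to 93.0) and high for hsd17b1 (2.22 CPM, others 0.0182 to 0.189) and foxl2a (3.85 CPM, others 0.0664 to 0.127). In saline males fish 68 was high for insl3 (543 CPM, others 114 to 231).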

How the results depend on the processing

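No member was called in any of the 28 settings, which covered 3 comparisons each; the smallest adjusted p was 0.0998 for rFsh against saline (star, edgeR without saline 68), 0.0912 for rLh against saline (hsd3b1, DESeq2 over the 12 fish) and 0.185 for rLh against rFsh (hsd3b7, DESeq2 over the 12 fish). By the median, same-numbered fish were not more alike than others. Over 9 same-numbered pairs the correlation of deviations ran from -0.25 to 0.48 (median -0.02), and 1 exceeded 0.1. Over 66 differently numbered pairs it ran from -0.37 to 0.44 (median -0.01), and 14 exceeded 0.1. The highest of all was a same-numbered pair, rLh 63 and saline 63. With the fish number as a block, 28, 2 and 12 genes were called over all genes in the comparisons of rFsh and of rLh with saline and of both hormones, and no member. In the fit with this replicate block the log2 fold change turned to -2.51 for hsd17b1 and -2.05 for foxl2a (rFsh against saline), to 0.0942 for star (rLh against saline) and to -0.0509 for hsd3b1, 2.30 for hsd17b1 and 1.97 for foxl2a (rLh against rFsh). Over the 12 fish star turned to 0.34 in edgeR and 0.33 in DESeq2 for rLh against saline. With each fish left out in turn, the log2 fold change for rFsh against saline ran from -0.0738 to 0.172 for LOC122775933, from -0.14 to 0.23 for lhcgr and from -1.71 to 2.18 for foxl2a. For rLh against saline it ran from -0.18 to 0.32 for star, from -0.51 to 0.22 for hsd17b1 and from -0.31 to 0.57 for foxl2a, and for rLh against rFsh from -0.46 to 0.23 for insl3 and from -1.95 to 1.65 for foxl2a. The correlation of star with hsd3b7 ran from -0.472 to 0.00395. In the block fit, the numbers 61, 62 and 69 occur only among rFsh males. Its comparisons with rFsh therefore rest on rFsh 64 and 68, without rFsh 69. Beyond this, the cause of the turns was not tested. Over all genes the count called for rFsh against saline was 10 in edgeR and 622 in DESeq2, 1 in edgeR's older quasi-likelihood form, a setting added after the data were seen, 998 without rFsh 69 and 633 without saline 68.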
